A study of Mus musculus with 17 samples.

Results

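Fat cell RNA was compared between tumors of the TH-MYCN mouse, a neuroblastoma model in which the rat tyrosine hydroxylase promoter drives human MYCN in cells of the sympathetic lineage. The tumors were abdominal, came from hemizygous animals kept on a single inbred strain background, and received no treatment named in the labels. All 17 were labelled as 1 group, and each was hybridized to its own Affymetrix Mouse Genome 430 2.0 array. The 2 groups compared here were chosen by a measured value, the level of Adipoq, which encodes adiponectin, a hormone secreted by fat cells. The 17 tumors were ranked by it, and the 5 highest were set against the 5 lowest. The 7 tumors between them were described and not fitted. Both groups therefore share genotype, strain background and transgene, and they differ by construction in Adipoq.

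White fat cells store triglyceride in a single large droplet and release hormones such as adiponectin and leptin. Brown fat cells hold many small droplets and mitochondria, and burn fatty acids to make heat through the uncoupling protein encoded by Ucp1. Fat depots lie around the kidney, the adrenal gland and the large abdominal vessels, and their supporting tissue holds fibroblasts, endothelial cells and macrophages. Tumor pieces were profiled whole, so fewer cells of a type and less RNA per cell cannot be told apart.

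Adipoq was measured by 1 probe set, and its log2 expression value chose the groups, so it is given once and not tested. The 5 highest tumors were mad548 at 10.81, mad556 at 10.56, mad562 at 9.92, mad558 at 9.49 and mad559 at 8.39. The 5 lowest were mad561 at 5.33, mad551 at 5.02, mad552 at 4.88, mad563 at 4.82 and mad554 at 4.66. Between them lay mad565 at 8.26, mad553 at 8.22, mad549 at 7.19, mad555 at 7.12, mad560 at 7.05, mad550 at 6.33 and mad564 at 5.80. The ranking was a gradient with no break at the upper limit, where mad559 and mad565 differed by 0.13 on the log2 scale. At the lower limit mad564 and mad561 differed by 0.47.

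Array medians lay between 6.28 and 6.51, with group means of 6.34 in the 5 highest and 6.37 in the 5 lowest tumors. The 3′ minus 5′ signal of Gapdh, a sign of RNA quality, was 2.65 ± 0.12 (SD, n = 5) and 2.54 ± 0.05 (SD, n = 5) on the log2 scale in the same order. That of Actb went the other way, at 1.75 ± 0.22 (SD, n = 5) and 1.81 ± 0.19 (SD, n = 5). Over the 18193 genes tested the median difference was -0.02 log2 units, and 45.7% of genes had the higher mean in the Adipoq-high tumors.

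Of these genes 5 rose in the Adipoq-high tumors at an adjusted p under 0.05 (limma with Benjamini-Hochberg adjustment), which is 0.0275% of the genes tested. None fell, 0% of the genes tested, although 724 genes were lower and 575 higher at an unadjusted p under 0.05 in limma. The 5 genes were Car3, Cyp2e1, Hp, Cidec and Lrg1. Car3 and Cidec belong to the lists of fat cell genes, which were drawn up with earlier results of these data known. The other 3 encode an enzyme and secreted proteins made by liver and also by fat.

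Cidec encodes a protein of the lipid droplet surface that helps droplets merge in fat cells. Its log2 value was 9.14 in mad548, 8.73 in mad556, 8.36 in mad562, 8.01 in mad558 and 7.31 in mad559, against 5.19 to 5.62 in the 5 lowest tumors. The groups did not overlap, the order of the 5 highest tumors was that of Adipoq, and the 7 tumors between held 5.54 to 6.56. The difference was 2.89 ± 0.28 log2 units (SE), or 7.39-fold, with a limma adjusted p of 0.00341.

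Cyp2e1 encodes a cytochrome P450 enzyme that oxidizes ethanol, ketones and fatty acids. It stood at 10.73 in mad548, 10.14 in mad556, 10.85 in mad562, 8.95 in mad558 and 9.36 in mad559 on the log2 scale, and at 4.88 to 5.50 in the 5 lowest tumors. No other tumor came near the 5 highest, since the 7 between held only 4.86 to 6.65. The difference was 4.86 ± 0.34 log2 units (SE), or 29.1-fold, with a limma adjusted p of 0.000293, and Cyp2e1 passed the threshold in each of the 25 alternative analyses that tested it.

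Hp encodes haptoglobin, the plasma protein that binds free hemoglobin. Its log2 values were 11.89 in mad548, 11.02 in mad556, 11.37 in mad562, 10.57 in mad558 and 10.80 in mad559. The 5 lowest tumors held 7.38 in mad561, 7.61 in mad551, 7.05 in mad552, 6.88 in mad563 and 9.08 in mad554, so the tumor lowest in Adipoq was the highest of its group. The 7 tumors between held 8.36 to 10.28. The difference was 3.53 ± 0.39 log2 units (SE), or 11.5-fold, with a limma adjusted p of 0.00839.

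Lrg1 encodes leucine-rich alpha-2-glycoprotein, a secreted protein of inflammation and vessel growth. It held 8.26 in mad548, 7.63 in mad556, 7.43 in mad562, 6.49 in mad558 and 7.23 in mad559 on the log2 scale, against 4.78 to 5.61 in the 5 lowest tumors. The groups did not overlap, but mad565 at 6.76 and mad553 at 6.77 exceeded mad558. The difference was 2.35 ± 0.28 log2 units (SE) with a limma adjusted p of 0.0141, and it was the least stable of the 5 calls, lost when any of mad556, mad561, mad551, mad552 or mad554 was left out.

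Car3 encodes a carbonic anhydrase abundant in white fat and in slow muscle. Its log2 value was 11.13 in mad548, 13.35 in mad556, 10.04 in mad562, 11.94 in mad558 and 11.15 in mad559, and 4.64 to 6.42 in the 5 lowest tumors. This was the largest difference of all genes tested, 5.86 ± 0.55 log2 units (SE) or 57.9-fold, with a limma adjusted p of 0.00294. The array holds 4 Car3 probe sets, whose differences were 5.86, 1.66, 0.63 and 0.48, and the call was lost when they were averaged. Car3 was also at 12.72 in mad553, 12.29 in mad549 and 10.81 in mad550, the 3 tumors whose means over 10 skeletal muscle genes were 12.79, 10.32 and 11.15 against 6.08 to 6.94 elsewhere. These 3 tumors were among the 7 between and entered neither group.

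**Figure D1:**
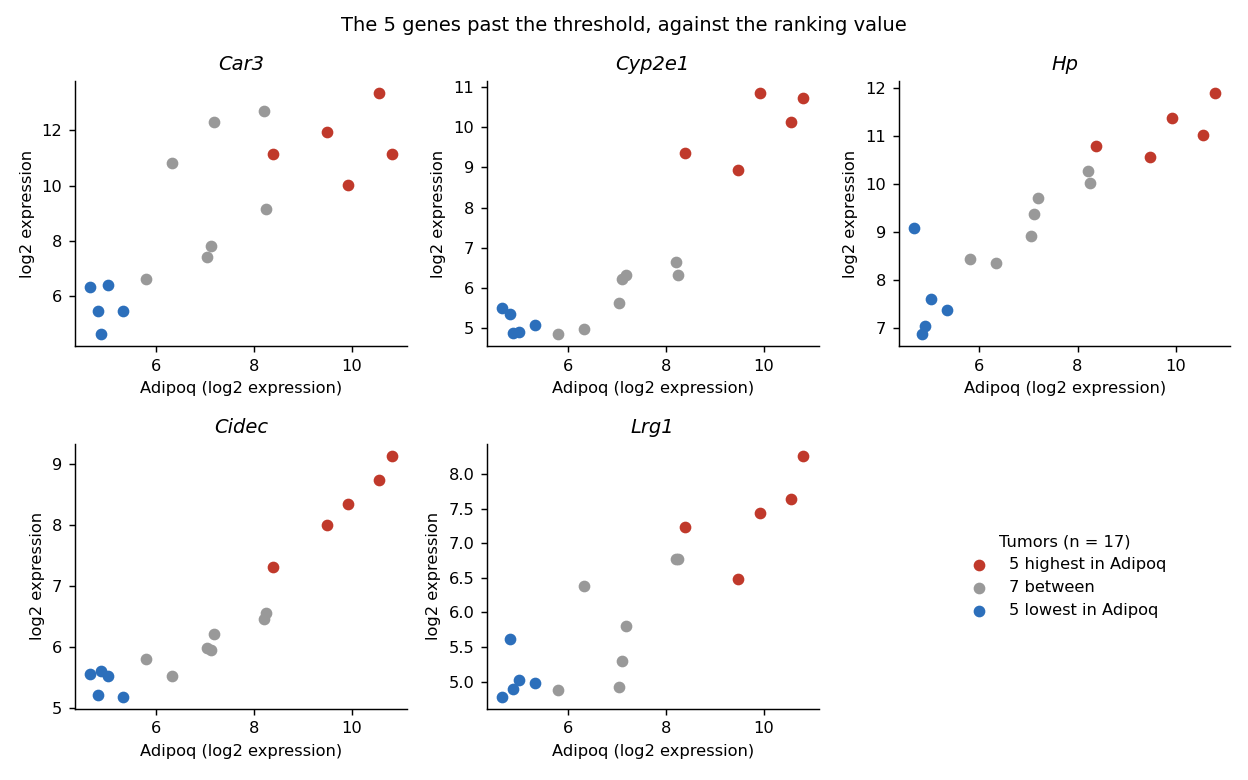
Log2 expression of the 5 genes that passed the threshold (vertical axes) against the log2 value of Adipoq that ranked the tumors (horizontal axes), with 1 point per tumor. Cyp2e1 is at 8.95 or above in the 5 tumors highest in Adipoq and at 6.65 or below in the other 12, while for Car3 3 of the 7 tumors between reach the level of the highest 5.

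The groups failed to overlap for 140 genes that were higher in the Adipoq-high tumors, 0.77% of those tested, and for 113 that were lower, 0.621%. That balance depended on scaling, since centring each array on its median gave 80 higher and 225 lower. A difference of at least 1 log2 unit was seen for 84 genes in the higher and 22 in the lower direction. Of the 30 genes with the largest positive difference, 10 were in the fat lists and 17 had their highest value of all tumors in mad562.

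**Figure D2:**
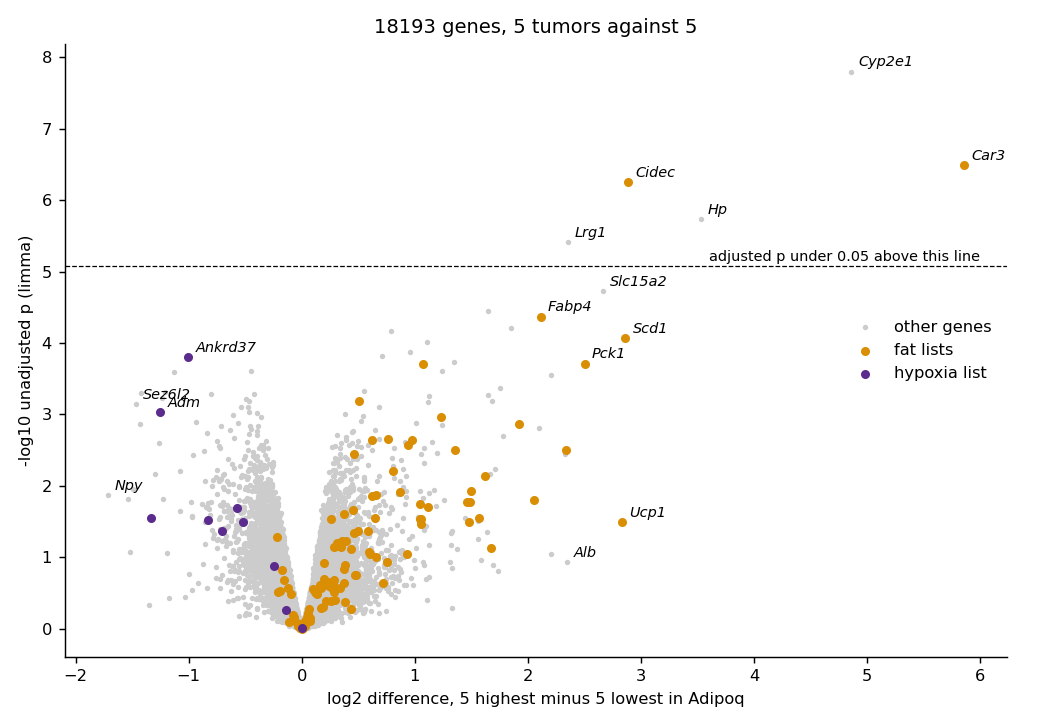
Difference between the 5 tumors highest and the 5 lowest in Adipoq (horizontal axis, log2 units) against the unadjusted limma p (vertical axis, -log10), with 1 point per gene. The members of the fat lists spread to the right, and 5 genes lie above the dashed line that marks the adjusted threshold.

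The 8 lists of fat cell genes together held 111 measured genes. They were chosen with earlier results of these data known, and the groups were formed on a fat cell gene. An excess of higher members follows in part from these choices, so the counts are a description and not a test. The mean was higher in the Adipoq-high tumors for 93 of them, against 45.7% of all genes, and the median difference was 0.36 log2 units against -0.02. Only Car3 and Cidec passed the adjusted threshold. At an unadjusted p under 0.05 in limma 40 were higher, against 3.16% of all genes, and 0 lower. The groups did not overlap for 15, against 0.77% of all genes in the higher direction, and for none in the lower. The medians of the 8 lists, 0.12 to 0.53 over all 10 tumors, were 0.10 to 0.40 without mad562. They were -0.003 for brown fat to 0.33 for white fat without mad548 and mad562, which were left out because their Ucp1 was highest, so that a fall follows in part from the choice.

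Storage of triglyceride in droplets gave the largest number of separated genes, among fat lists of 9 to 23 measured members. Of 20 measured members 16 were higher, 1 passed the threshold and 6 did not overlap. The shares over all genes were 45.7%, 0.0275% and 0.77% in the same order. The median difference of the list was 0.31. Fabp4, the fatty acid binding protein of fat cells, held 13.24, 11.99, 12.48, 11.89 and 11.49 in the 5 tumors from highest to lowest Adipoq and 9.52 to 10.84 in the lowest 5, a difference of 2.11 ± 0.33 (SE) with a limma adjusted p of 0.0981. Its groups did not overlap although it missed the threshold. Another Fabp4 probe set differed by 1.46 without overlap, and those that differed by 0.80 and 1.15 overlapped. Pck1, which supplies the glycerol backbone in fat cells, held 5.17 to 7.99 against 3.77 to 4.0, a difference of 2.50 ± 0.46 (SE, limma adjusted p = 0.2). Agpat2, an acyltransferase of triglyceride synthesis, differed by 2.34 ± 0.62 (SE, limma adjusted p = 0.535), and its values of 9.23 in mad548 and 9.51 in mad562 stood well above 6.09 to 7.26 in the other 3. The droplet coat genes Plin5 and Plin4 differed by 1.62 and 1.23 with no overlap, and neither passed. Plin2, the perilipin found on droplets of most cells, differed by 0.29 and lay between 10.44 and 12.49 in the 2 groups together.

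Uptake and release of fatty acids had the largest median of the 8 lists. Of 10 measured genes 8 were higher and none passed, with a median difference of 0.53, which was 0.27 without mad562. Lpl, the lipase that frees fatty acids from lipoproteins, was bright in both groups, at 12.87 ± 0.76 (SD, n = 5) and 11.82 ± 0.79 (SD, n = 5). The fatty acid transporter gene Cd36 differed by 1.36 and the hormone-sensitive lipase gene Lipe by 0.77, both with overlap. Mgll, the lipase of the last step of lipolysis, held 8.29 to 9.56 against 7.27 to 8.24 without overlap.

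Fatty acid synthesis split between the desaturase and the synthase. Scd1, the desaturase that makes oleate, held 13.10 in mad548, 10.97 in mad556, 13.50 in mad562, 11.49 in mad558 and 10.92 in mad559, against 8.92 to 9.54. Its difference of 2.86 ± 0.48 (SE) left no overlap but had a limma adjusted p of 0.141. A second Scd1 probe set differed by 0.97, and there the groups overlapped. Fasn, the fatty acid synthase, stood at 12.11 ± 0.26 (SD, n = 5) against 11.95 ± 0.17 (SD, n = 5), a difference of 0.16 ± 0.13 (SE). The regulators Srebf1 and Mlxipl differed by 0.51 and 0.66 without overlap. Of all 15 members 12 were higher and none passed.

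All 9 measured members of the secreted list were higher and none passed, with a median difference of 0.50, which was 0.34 without mad562. Adig, which encodes the fat cell protein adipogenin, was the member whose groups did not overlap, at 5.15 to 6.29 against 4.58 to 5.03. Its difference of 1.07 ± 0.20 (SE) had a limma adjusted p of 0.2, and it passed in 5 of 25 alternatives. Those were the fits without mad559, which held 5.15, the lowest Adig value of the Adipoq-high group, and the fits over all 17 tumors. The passes thus follow in part from leaving that tumor out or from the ranking value itself. Retn, the mouse adipocyte hormone resistin, held 7.34 in mad548, 9.03 in mad556, 6.48 in mad562, 7.95 in mad558 and 7.40 in mad559, so that mad562 alone lay within the 6.09 to 6.81 of the lowest tumors. Lep, which encodes leptin, stayed near the lower end of the array values in every tumor, with 4.44 ± 0.15 (SD, n = 5) against 4.38 ± 0.12 (SD, n = 5). Pparg, the main transcription factor of fat cell formation, reached 9.99 in mad562 and lay between 6.88 and 7.85 in the other 4, while the lowest tumors held 6.02 to 8.32. Of 10 transcription factors 8 were higher, none passed and none separated the groups.

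**Figure D3:**
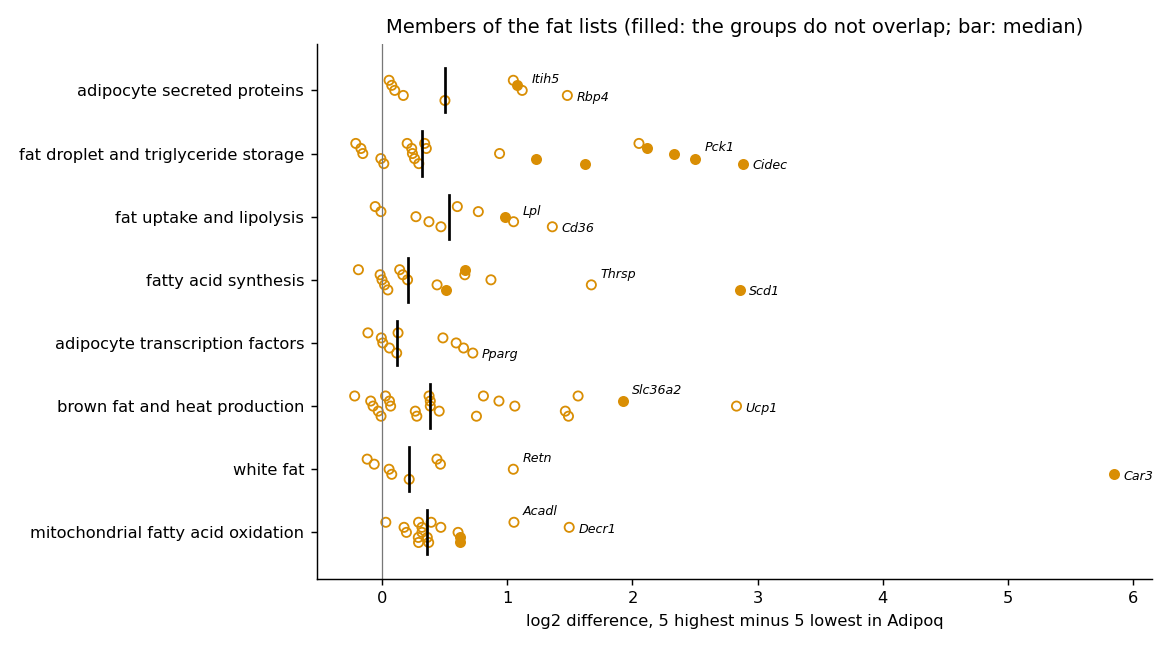
Difference between the 5 tumors highest and the 5 lowest in Adipoq (horizontal axis, log2 units) for each measured member of the 8 fat lists, with filled points where the groups do not overlap and a bar at each list's median. All medians lie above 0, from 0.12 for transcription factors to 0.53 for uptake and lipolysis, and most members lie below 1.

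Ucp1 and several other brown fat genes were uneven among the 5 Adipoq-high tumors. Ucp1, which defines brown fat, held 12.13 in mad548, 6.18 in mad556, 12.76 in mad562, 9.99 in mad558 and 6.75 in mad559, so it was high in 3 of the 5. The 5 lowest tumors held 7.30, 6.54, 7.16, 6.36 and 6.28 from mad561 to mad554, and the 7 between held 8.35 to 9.80. Every tumor of the middle group thus exceeded mad556, which had the second highest Adipoq. The difference of 2.83 ± 1.16 (SE) had a limma adjusted p of 0.695.

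Cox7a1, Dio2 and Elovl3 were also highest in mad548 and mad562. Cox7a1, a cytochrome oxidase subunit of brown fat and muscle, held 7.80 in mad548 and 8.06 in mad562, against 4.71 in mad556, 5.47 in mad558 and 4.90 in mad559. Dio2, which activates thyroid hormone, held 8.19 and 8.27 in mad548 and mad562 and 5.46 to 6.12 in the other 3. Elovl3, an elongase of brown fat, held 6.74 and 6.98 against 4.63 to 5.55. Slc36a2, an amino acid transporter of the brown fat cell surface, was the only one of the 23 measured members whose groups did not overlap, at 5.87 to 8.64 against 4.99 to 5.41. It missed the threshold in this comparison (limma adjusted p = 0.46) and passed it in 1 of 25 alternatives. That was the fit with Adipoq, the ranking value itself, as a continuous covariate over the 17 tumors (limma adjusted p = 0.0055). Cidea, a droplet protein often used as a brown fat marker, was high in both groups, at 11.42 ± 0.38 (SD, n = 5) and 10.96 ± 0.19 (SD, n = 5). Otop1 held 6.31 in mad548 and 5.96 in mad562, against 4.04 to 4.20 in the other 3. Cox8b held 7.48 and 8.05 in mad548 and mad562, but also 7.60 in mad553, of the middle group. Prdm16 was not raised in mad562. It held 9.84 in mad548, 8.37 in mad562 and 9.56 in mad559, against 8.31 to 9.03 in the lowest tumors. Of the 23 members 18 were higher and none passed, while 5 were lower, down to -0.22. The median difference of this list was 0.38.

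Counted tumor by tumor, mad556 had 2 of the 23 brown fat genes above the highest of the 5 lowest tumors, or 8.7%, and 7 below the lowest of them, or 30.4%. Over all genes these shares in mad556 were 11.4% above and 20% below. The count of brown fat genes above the lowest tumors was 17 in mad548, 13 in mad562, 10 in mad558 and 8 in mad559. For droplet storage it was 8 of 20 in mad556 and 15 of 20 in mad548. Over the 111 fat genes mad548 had 76, mad562 72, mad558 40, mad556 29 and mad559 27, while 11.4% to 26.4% of all genes lay above the lowest tumors in these 5. The count for mad559 lay below that of mad565, mad553 and mad555, each with 38 or 39 and each lower in Adipoq. Of the 111 genes 42 had their highest value of the 17 tumors in mad562 and 33 in mad548.

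Genes of mitochondrial fatty acid oxidation also had their highest list means in mad548 and mad562. All 17 measured members had the higher mean in the Adipoq-high tumors, with a median difference of 0.36, and none passed. Above the highest of the 5 lowest tumors lay 16 of the 17 in mad548 and 15 in mad562, but 7 in mad558, 3 in mad556 and 2 in mad559. Acadl, a dehydrogenase for long-chain fatty acids, held 10.31 and 10.68 in mad548 and mad562 and 8.29 to 8.73 in the other 3, against 7.77 to 8.68.

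**Figure D4:**
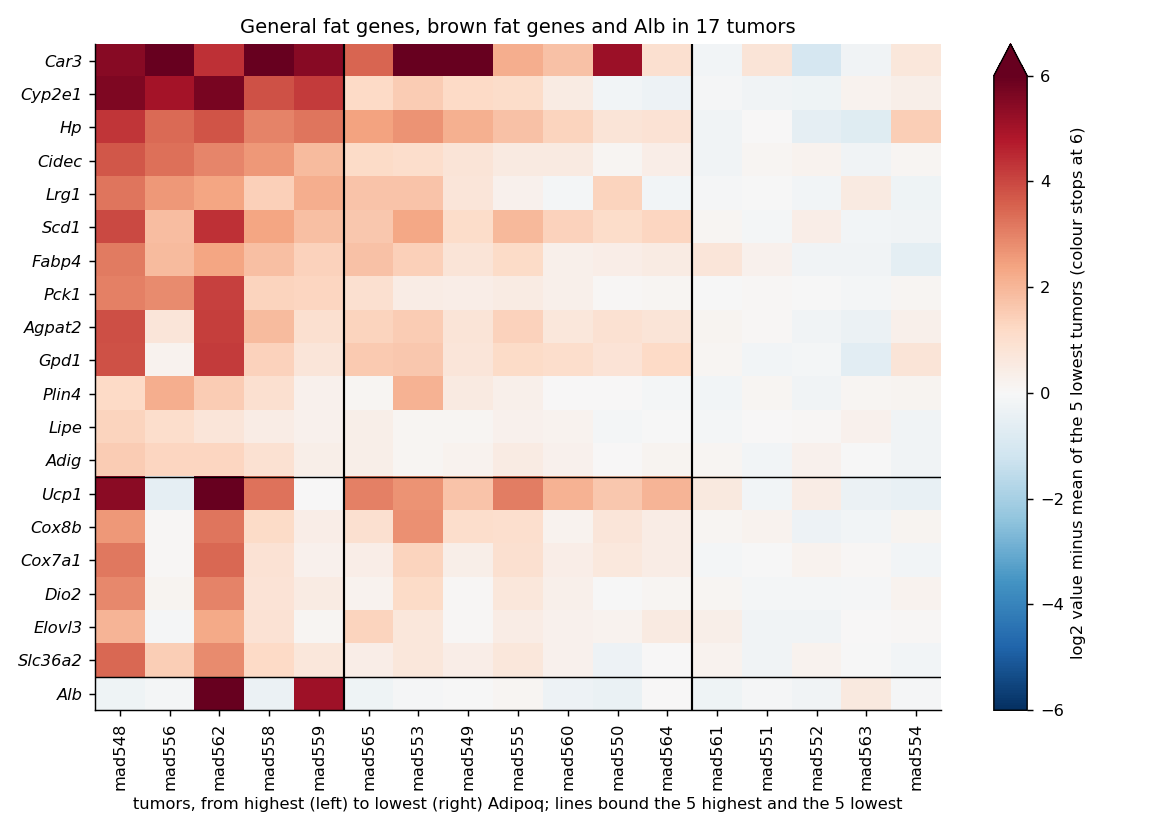
Log2 value of 20 genes in each of the 17 tumors, ordered by Adipoq, minus the mean of the 5 tumors lowest in Adipoq (colour, which stops at 6). Cyp2e1 and Cidec are raised in all 5 tumors on the left, Ucp1, Cox7a1, Dio2, Elovl3 and Slc36a2 are strongest in mad548 and mad562, and Alb is far above the lowest tumors in mad562 and mad559 alone.

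Liver RNA was present in the Adipoq-high group. Alb, which encodes serum albumin, held 12.52 in mad562 and 10.26 in mad559, against 4.79 to 5.76 in the other 15 tumors. The mean over 7 hepatocyte genes was 9.48 in mad562, 7.04 in mad559 and 5.07 to 5.44 elsewhere, and Cyp3a11, a liver cytochrome P450, held 10.90 and 8.21 against 3.82 to 4.44. Cyp2e1, Hp and Lrg1 were high in mad548, mad556 and mad558 too, where Alb was at 4.91, 5.08 and 4.83. Without mad562 and mad559 the differences were 4.80 for Cyp2e1, 3.56 for Hp and 2.40 for Lrg1, with limma adjusted p of 0.000854, 0.0436 and 0.0701. Both tumors were left out after the data had been seen. Whether the RNA of these genes came from liver, fat or other cells was not tested. In that fit 11 genes passed, among them Slc15a2, which encodes an oligopeptide transporter and differed by 3.22 against 2.67 (limma adjusted p = 0.0567) over all 10 tumors. Its lowest value in the Adipoq-high group was 6.66 in mad559, so the rise follows in part from leaving that tumor out. Slc15a2 passed in 7 of 25 alternatives, and with its probe sets averaged it differed by 0.92 (limma adjusted p = 0.16). Its highest value of all tumors was 9.06 in mad564, of the middle group.

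Fibroblast and macrophage genes were also higher on average. Of 15 genes of fat progenitors and fibroblasts 12 were higher and none passed, with a median difference of 0.53. Dpt, which encodes the matrix protein dermatopontin, held 7.46 to 9.05 against 5.96 to 7.14, and Gsn, the actin-severing protein gelsolin, 9.22 to 10.44 against 8.39 to 9.20, both without overlap. The list mean was 8.26 to 8.63 in the Adipoq-high tumors and 7.51 to 8.42 in the low ones. All 11 macrophage genes were higher with a median of 0.30, which was 0.01 without mad562 and mad559. The macrophage median was 0.06 without mad562 and -0.06 without mad548 and mad562. The macrophage list means overlapped, at 8.29 to 9.94 in the Adipoq-high tumors and 8.38 to 8.97 in the low ones. The scavenger receptor gene Cd163 held 8.28 in mad548, 6.71 in mad556, 5.97 in mad562, 5.08 in mad558 and 7.21 in mad559, against 4.22 to 5.46, so mad558 overlapped the low group. The part of these cells in the fat gene differences was not tested.

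None of the genes of the remaining cell type lists passed. The median difference was 0.10 for skeletal muscle, 0.16 for endothelial cells, 0.00 for T and NK cells, 0.12 for B and plasma cells, 0.01 for mesothelium and -0.05 for Schwann cells, and with each array centred on its median it was -0.02 for T and NK cells and for mesothelium. Without mad562 it was -0.14 for B and plasma cells and -0.09 for T and NK cells. It was -0.09 for kidney, -0.10 for adrenal cortex, -0.13 for erythroid cells and -0.16 for exocrine pancreas. The 6 MHC class II and 8 interferon response genes were all higher, with medians of 0.68 and 0.33, and their list means were highest in mad562 at 9.99 and 7.62. Without mad562 the medians were 0.09 and 0.17.

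Hypoxia genes had lower means in the Adipoq-high tumors. Of 10 genes induced by low oxygen 9 were lower and 7 of them had an unadjusted p under 0.05 in limma, against 3.98% of all genes in the lower direction, but none passed after adjustment. The median difference was -0.64 log2 units, and it kept its sign in all 26 alternatives, from -0.82 to -0.48. These alternatives reuse most of the same tumors, and the list was chosen with earlier results of these data known. The counts and the sign are therefore a description and not a test. Adm, which encodes the vessel-widening peptide adrenomedullin, held 11.20 in mad548, 10.59 in mad556, 10.93 in mad562, 10.85 in mad558 and 10.07 in mad559, against 11.15 to 12.5 in the lowest tumors, and only mad552 overlapped. Ankrd37 was the single member whose groups did not overlap, at 6.29 to 7.34 against 7.54 to 8.17, a difference of -1.0 ± 0.18 (SE, limma adjusted p = 0.192). Egln3, a prolyl hydroxylase that marks the hypoxia-inducible factor for decay, differed by -1.33 and the glucose transporter gene Slc2a1 by -0.83, both with overlap.

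Of 21 sympathoadrenal genes, the genes of the tumor cells' own lineage, 13 were lower with a median of -0.05, and none passed. At an unadjusted p under 0.05 in limma 4 were lower, against 3.98% of all genes in the lower direction: Npy, Th, Dbh and Slc18a2. The 8 members that were higher differed by at most 0.19. Npy, which encodes neuropeptide Y and had the largest negative difference of all genes, held 8.47 to 10.33 against 9.07 to 12.06, a difference of -1.72 ± 0.58 (SE, limma adjusted p = 0.675). Th, the rate-limiting enzyme of catecholamine synthesis, stood at 12.68 ± 0.57 (SD, n = 5) against 13.50 ± 0.54 (SD, n = 5). Dbh, which makes noradrenaline, and Slc18a2, the vesicular monoamine transporter, differed by -0.65 and -0.50 and overlapped. The secretory granule genes Scg2 and Vgf differed by -1.54 and -1.49, with Pomc between them at -1.52, and in each the groups overlapped. Sez6l2, a membrane protein of neurons, did not overlap, at 7.14 to 8.27 against 8.45 to 10.12.

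Proliferation genes were slightly higher in the Adipoq-high tumors. Of 22 genes 21 were higher, none passed, and the median difference was 0.18, with a range of 0.14 to 0.21 over the alternatives. Pcna, the sliding clamp of DNA replication, held 13.65 to 13.80 against 13.24 to 13.62 without overlap, a difference of 0.28 ± 0.08 (SE, limma adjusted p = 0.66). The list mean was 11.72 to 11.90 against 11.59 to 11.73. The 13 measured MYC target genes had a median of 0.11 and the 13 citrate cycle and respiratory chain genes one of 0.15. None passed.

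**Figure D5:**
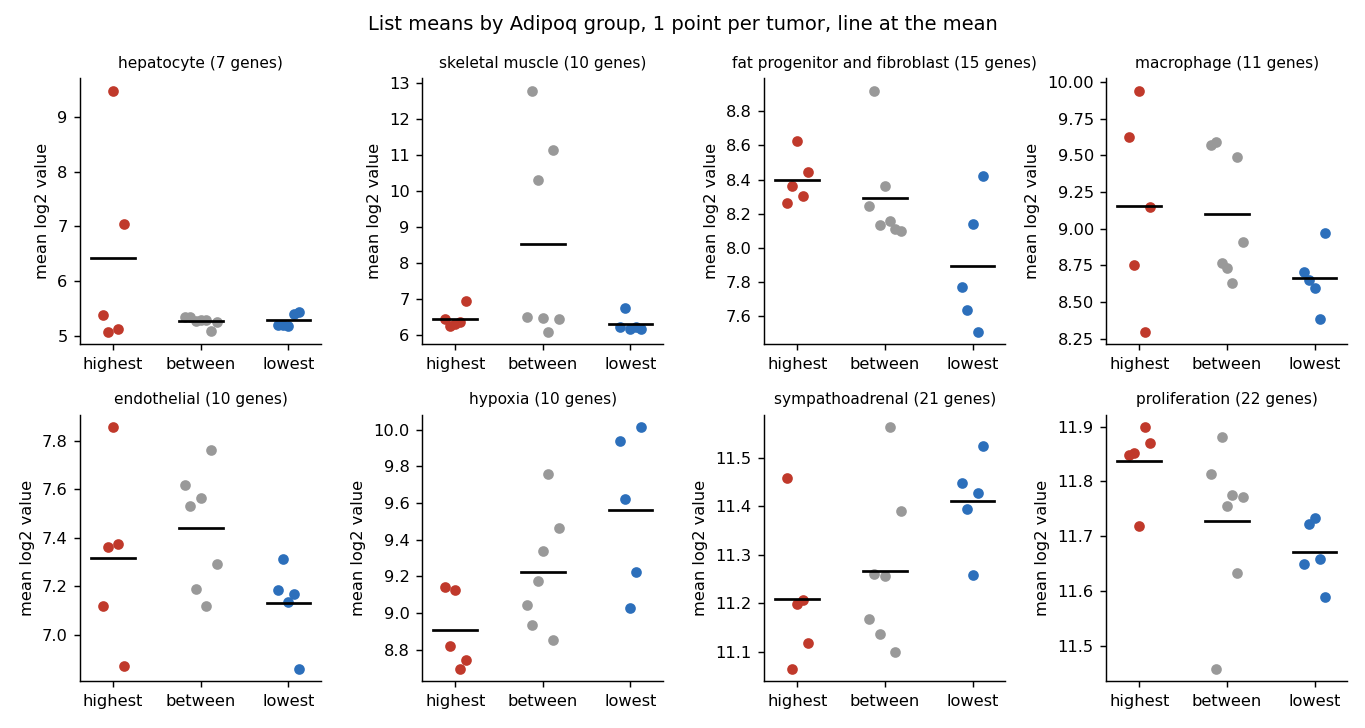
Mean log2 value over the measured genes of 8 lists of other cell types and processes (vertical axes, scales differ) in the tumors highest, between and lowest in Adipoq, with 1 point per tumor and a line at the group mean. The hepatocyte mean is raised in 2 of the 5 highest tumors, the muscle mean in 3 of the 7 between, and the hypoxia mean is 8.70 to 9.14 in the highest against 9.03 to 10.01 in the lowest.

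The sex-linked genes did not divide the groups. Xist, the RNA of the inactive X chromosome, was at 5.97 in mad562 and at 13.45 to 13.62 in the other 4 Adipoq-high tumors, while of the low tumors mad561 and mad554 held 7.29 and 5.82. The Y-linked gene Eif2s3y was at 10.29 in mad562, 10.44 in mad561 and 10.68 in mad554, and at 3.76 to 4.13 in the other 7 tumors compared. With Xist as a covariate 7 genes passed in limma, among them the 5 named above.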

How the data were processed

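RNA of 17 tumors was measured on Affymetrix Mouse Genome 430 2.0 arrays, 1 array per tumor, after an amplification that per the labels ran in 2 cycles and favours the 3′ end of transcripts. The deposited values are log2 expression values per probe set; the submitters' processing notes name RMA and Partek 6.4, while the methods of the study name MAS5 for arrays, and the values were used as deposited. Of 45101 probe sets, 64 were controls, 34958 carried 1 gene symbol and 932 several. Symbols came from the platform annotation, updated by gene ID for 34754 probe sets. A gene was represented by its single-symbol probe set of highest mean. Adipoq was left out, which gave 18193 genes.

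Groups were the 5 tumors highest and 5 lowest in Adipoq. Differences were tested with limma 3.58.1 (lmFit, eBayes) in R 4.3.3, with Benjamini-Hochberg adjustment over all genes and a threshold of 0.05. Because the groups were formed from the arrays they were then compared on, the p-values describe genes that follow Adipoq in these tumors. They set each difference between the groups against the spread of tumors within a group, and the number of arrays limits the precision. The fit was tested on simulated data.

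The members and the 30 gene lists (351 genes, 320 measured) were chosen with earlier results of these data known. Named were any fat list member, the 4 largest differences of each other list, the genes past the threshold, up to 10 of the largest differences in each direction that did not pass, and sex-linked genes. Of 26 alternatives, 3 were chosen after seeing the data: without mad562 and mad559, without mad548 and mad562, and all 17 tumors in 3 groups. Raw probe intensities were not analysed here.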

Additional observations from a re-analysis of the deposited data

Results flagged for a closer look

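In 10 of 184 sets of 5 tumors checked, 1 tumor stood far from the other 4, where chance gives about 1 in 20. The count was thus near the chance share. In the Adipoq-high group the tumor that stood apart was mad562 each time. Its log2 value was 5.971 for Xist against 13.446 to 13.623 in the others, 10.295 for Eif2s3y against 3.757 to 4.127, 8.05 for Kdm5d against 3.818 to 3.959, and 12.565 for Fasn against 11.907 to 12.034. Xist, Eif2s3y and Kdm5d are sex-linked genes, so they are not separate observations.

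In the Adipoq-low group mad563 stood above the others at 5.761 for Alb against 4.93 to 5.109, at 5.609 for Lrg1 against 4.781 to 5.021, and at 10.278 for Srebf1 against 10.002 to 10.082. The tumor mad552 stood below the others at 3.821 for Cyp3a11 against 4.135 to 4.254, and at 6.093 for Retn against 6.667 to 6.812. The tumor mad554 was lowest for Tek, an endothelial receptor gene, at 5.062 against 5.713 to 5.905.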

How the results depend on the processing

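No paired analysis was possible because no replicate number of the labels occurs in both groups. The count of genes that rose was 5 and ranged from 2 to 27 over 26 alternatives, and no gene fell in any. It was 2 among genes at or above the median gene, where Car3 and Hp alone of the 5 were tested, 8 with arrays centred on their median, 8 for 4 tumors against 4 (Hp and Lrg1 lost), 9 for 6 against 6, 27 with Adipoq as a continuous covariate over 17 tumors, 2 when tumors were ranked by Cidec and Lipe (Car3 and Lrg1 lost), 11 without mad562 and mad559 and 12 with 17 tumors in 3 groups. Leaving out 1 tumor at a time gave 4 to 11 genes, with 11 without mad559. Car3 and Hp each passed in 24 of 26 alternatives, Cidec in 24 of 24, Cyp2e1 in 25 of 25 and Lrg1 in 17 of 25. Genes without overlap numbered 140 higher and 113 lower, and in the same order 93 and 42 above the median gene, 80 and 225 with centring, 287 and 269 for 4 against 4, 63 and 46 for 6 against 6, 273 and 202 without mad549, mad550, mad553 and mad562 (of which mad562 alone was in a group), 445 and 286 without mad562 and mad559, and 417 and 908 without mad548 and mad562. They numbered 75 lower when ranked by Cidec and Lipe, and 178 to 273 higher and 135 to 458 lower (458 without mad548) when 1 tumor was left out. Such counts can only stay or rise when tumors are removed from a group, and only stay or fall when tumors are added. Of 2342 pairs of gene and alternative 2332 kept their direction. The 10 that reversed were Apoa1 at -0.124 with the hepatocyte list as a covariate, Apoa1 at -0.198, Alb at -0.235, Ahsg at -0.0535 and Fgb at -0.0359 without mad562 and mad559, Lep at -0.0104 without mad548 (0.0976 at most with 1 tumor left out), and Lep at -0.00155, Dgat2 at -0.109, Otop1 at -0.0628 and Plin2 at -0.173 without mad548 and mad562. Apart from this effect of group size on the counts without overlap, the cause of these shifts was not tested. Values near the lower end of an array, such as those of Lep, carry little information on differences.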
